A study of Homo sapiens with 12 samples.

Results

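The nuclear envelope separates the genome from the cytoplasm with an inner and an outer membrane, which meet at the nuclear pores, and with a meshwork of lamin proteins under the inner membrane. The LINC complex (linker of nucleoskeleton and cytoskeleton) spans both membranes: SUN-domain proteins in the inner membrane hold the lamina on the inside and, in the space between the membranes, bind nesprins, whose other ends reach actin, microtubule motors or intermediate filaments. These bridges position and move the nucleus and pass force to it, and they are known for these roles in epithelial cells and muscle.

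The set examined here was 10 genes of this system, chosen by name from the 60617 gene IDs in the count files: the SUN-domain genes SUN1 and SUN2, the nesprin genes SYNE1 and SYNE2, the lamin genes LMNA, LMNB1 and LMNB2, and the inner membrane or lamina-binding genes LBR, EMD and TMPO. All 10 IDs were found through the GENCODE symbols, and all 10 passed the filter on low counts, which asks for 1 count or more per library on average. SUN1 was put at the centre because its counts differed between Viperin and Control libraries, so that contrast is given as a description and supports nothing here. The Viperin + Insulin and Insulin libraries are not in that contrast, and the contrast between them is tested below. Results of all 4 groups may have been known when the genes were chosen, so its p-values are not independent evidence.

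The data were 12 mRNA-seq libraries, 3 in each of 4 groups, from the immortalized human endometriotic epithelial line 12Z. Control libraries had pCAG empty vector and vehicle, Insulin libraries had pCAG empty vector and 100 nM insulin, Viperin libraries had pCAG Viperin and vehicle, and Viperin + Insulin libraries had pCAG Viperin and 100 nM insulin, with RNA collected 24 h after insulin or vehicle. Viperin, the product of RSAD2, is an interferon-induced enzyme of the endoplasmic reticulum and lipid droplets. All groups were transiently transfected pools of a single cell line that had been taken off serum before treatment, and 1 label of the treatment names a pBabe empty vector where the other labels give pCAG. The methods give independent experiments as the replicates.

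Libraries held 25979022 to 46889002 read pairs assigned to genes. RSAD2 was at 2.28 to 5.19 CPM (counts per 1000000 assigned pairs, scaled by the TMM method) in the 6 empty vector libraries and at 384 to 665 CPM in the 6 Viperin plasmid libraries, which matched the labels. Control library 1 and Viperin library 3 stood apart, with 13.9% and 12.1% of read pairs mapped to more than 1 place against 9.44% to 10.99% in the other libraries, and the main results that rest on them are also given without both. The keratin genes KRT8, KRT18 and KRT19 were at 430.1 to 1429 CPM in every library. The epithelial markers EPCAM, at 0.0773 to 0.828 CPM, and CDH1, at 0.8075 to 2.003 CPM, were near 0, while the mesenchymal marker VIM was at 1391 to 1739 CPM. Endothelial markers summed to 10.1 to 13.9 CPM and blood cell markers to 0.969 to 4.68 CPM. In bulk RNA, fewer cells of a type and less RNA per cell cannot be told apart.

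Per length, the lamins and TMPO had the highest levels of the set and the nesprins the lowest. In Control libraries, LMNB1 had a level of 72.0 ± 3.96 CPM per kb of merged exon (SD, n = 3) and LMNB2 of 64.7 ± 5.06. LMNA had a level of 46.9 ± 3.13 CPM per kb and TMPO, which encodes the LAP2 proteins that bind lamins and chromatin, of 46.4 ± 1.68. The ranges of LMNB1 and LMNB2 overlapped, as did those of LMNA and TMPO. EMD was next at 29.6 ± 0.466 CPM per kb, then LBR at 17.9 ± 0.588, SUN1 at 10.5 ± 0.459, SUN2 at 9.44 ± 0.545, SYNE2 at 4.06 ± 0.157 and SYNE1 at 0.653 ± 0.0359, and none of these neighbours overlapped. With the length of the canonical transcript in place of all merged exons, an alternative chosen after the data were seen, LMNA came first at 120.0 CPM per kb, TMPO at 95.3 stood above LMNB1 at 90.5 and LMNB2 at 75.3, and SUN1 at 31.1 stood above LBR at 27.2. Across these lengths SYNE2 and SYNE1 stayed in the last places, at 6.02 and 1.12 CPM per canonical kb. SYNE1 and SYNE2 encode giant proteins with many shorter isoforms, and a count per gene does not tell the isoforms apart.

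SUN1 (ENSG00000164828.18, GRCh38 chr7:816615-896435, plus strand) is an inner membrane protein that binds lamin A and the KASH ends of nesprins. In the Insulin libraries it was at 121.4, 125.6 and 121.4 CPM. In the Viperin + Insulin libraries it was at 144.8, 144.3 and 146.7 CPM. Every Viperin + Insulin library lay above every Insulin library, and the gap between the groups exceeded the spread within either. SUN1 rose 1.18-fold with the Viperin plasmid under insulin (log2 fold change 0.24, SE 0.04, 95% interval 0.16 to 0.32, adjusted p = 2.6e-05, edgeR quasi-likelihood test), and ranked 28 of the 23041 genes tested by p.

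In the contrast that SUN1 was chosen on, Control libraries were at 130.4, 119.6 and 124.1 CPM and Viperin libraries at 145.2, 149.2 and 160.6 CPM. The groups did not overlap here either. The log2 fold change of Viperin against Control was 0.28 (SE 0.04), and it was 0.27 without the 2 libraries that stood apart. Over vehicle and insulin together, the 6 Viperin plasmid libraries were at 144.3 to 160.6 CPM and the 6 empty vector libraries at 119.6 to 130.4 CPM.

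Insulin itself was followed by no called change of SUN1. The means were 124.7 ± 5.44 CPM in Control and 122.8 ± 2.41 CPM in Insulin (SD, n = 3), and the log2 fold change was -0.02 (95% interval -0.10 to 0.06, adjusted p = 0.86, edgeR). With the Viperin plasmid the means were 151.7 ± 8.02 CPM in vehicle and 145.3 ± 1.26 CPM in insulin, with a log2 fold change of -0.06 (95% interval -0.14 to 0.02, adjusted p = 0.50, edgeR). Without the 2 libraries that stood apart these values were 0.016 and -0.021, neither called. These contrasts share the Control or the Viperin libraries with the one used to choose SUN1. The difference between these insulin responses was -0.04 (95% interval -0.15 to 0.07, adjusted p = 0.98, edgeR).

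SUN1 shares 1842 exon bases with GET4 on the same strand, and reads that fall there are counted for neither gene. GET4 was at 3.25 to 4.44 CPM over the 12 libraries, and its groups overlapped between every pair of conditions compared here.

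SUN2 (ENSG00000100242.15, GRCh38 chr22:38733290-38794143, minus strand) encodes the other widely expressed SUN-domain protein. Its 300-base RefSeq promoter window at the start of the canonical transcript (GRCh38.p14, chr22:38755949-38756248, minus strand) is shown because SUN2 was the member with a called difference in all 4 contrasts. Capitals mark CCAAT boxes and Sp1-type GC boxes on either strand.

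SUN2: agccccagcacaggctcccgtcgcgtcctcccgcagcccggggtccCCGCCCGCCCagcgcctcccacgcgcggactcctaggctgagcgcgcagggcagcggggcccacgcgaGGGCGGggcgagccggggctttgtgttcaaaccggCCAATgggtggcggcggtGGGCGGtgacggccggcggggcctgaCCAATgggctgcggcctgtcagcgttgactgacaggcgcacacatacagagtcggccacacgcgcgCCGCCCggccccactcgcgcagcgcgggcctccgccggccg

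This window held 2 CCAAT boxes and 5 GC boxes, a pair of which overlap, and was 77% G or C. Under insulin, SUN2 was higher with the Viperin plasmid. Insulin libraries were at 69.3, 70.1 and 72.0 CPM and Viperin + Insulin libraries at 82.0, 82.5 and 81.0 CPM. The groups were apart by more than their own spread. SUN2 rose 1.16-fold (log2 fold change 0.22, SE 0.04, 95% interval 0.13 to 0.30, adjusted p = 6.6e-04, edgeR).

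In vehicle, Control libraries were at 83.5, 74.4 and 78.6 CPM of SUN2 and Viperin libraries at 87.9, 92.5 and 92.4 CPM, again without overlap. The log2 fold change, given as a description, was 0.21 (SE 0.04), and 0.24 without the 2 libraries that stood apart. SUN2 was called lower with insulin on both plasmids, from the same libraries. Insulin against Control gave a log2 fold change of -0.16 (SE 0.04, adjusted p = 0.012, edgeR), and Viperin + Insulin against Viperin gave -0.15 (SE 0.04, adjusted p = 0.017, edgeR). The first call was lost without Control library 1 (-0.12, adjusted p = 0.12), Insulin library 1 (-0.15, adjusted p = 0.056) or Insulin library 2 (-0.16, adjusted p = 0.069), and without both libraries that stood apart (-0.11, adjusted p = 0.12). The second was lost without Viperin library 2 (adjusted p = 0.0999), Viperin library 3 (adjusted p = 0.070), Viperin + Insulin library 1 (adjusted p = 0.056) or Viperin + Insulin library 3 (adjusted p = 0.089), while its log2 fold change stayed between -0.18 and -0.14 with any single library left out. It kept its call without both libraries that stood apart (-0.14, adjusted p = 0.029).

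SUN2 overlaps GTPBP1 on the opposite strand over 1135 exon bases and DNAL4 on the same strand over 76 bases. Between 2.60% and 3.8% of the SUN2 reads assigned to a strand lay on the opposite strand, against at most 1.27% for the other members, and the counts used here are those of the reverse-stranded setting that the methods name. With unstranded counts both SUN2 insulin calls were lost, at -0.13 against Control (adjusted p = 0.17) and -0.14 with the Viperin plasmid (adjusted p = 0.11).

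**Figure D1:**
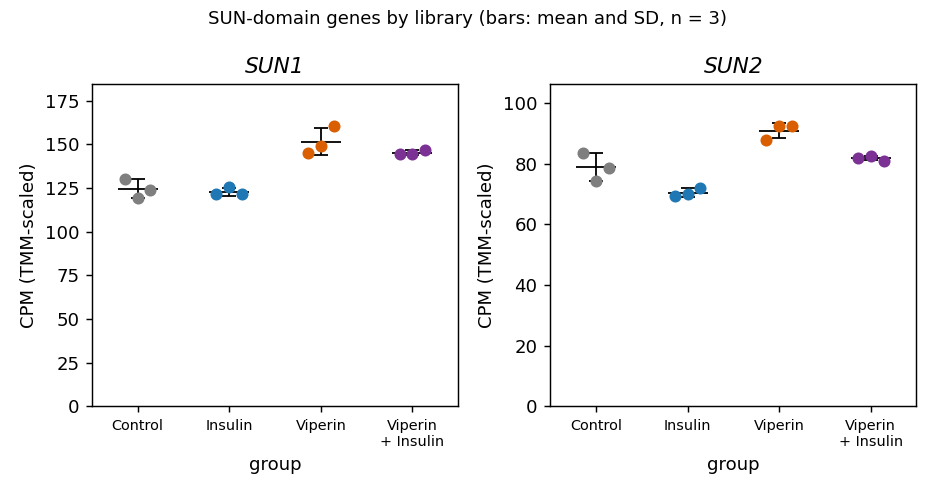
Levels of SUN1 (left) and SUN2 (right) in CPM (TMM-scaled) on linear axes from 0, with 1 point per library and bars for the mean and SD of the 3 libraries of each group. SUN1 sits at 144.3 to 160.6 CPM in the Viperin plasmid libraries and at 119.6 to 130.4 CPM in the empty vector libraries, and SUN2 is lower in the insulin group of each plasmid.

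The balance of the pair was compared within libraries, where no scaling enters. The ratio of SUN1 counts to SUN2 counts was 1.56 to 1.61 in Control and 1.69 to 1.79 in Insulin libraries, and with the Viperin plasmid it was 1.61 to 1.74 in vehicle and 1.75 to 1.81 in insulin. Viperin + Insulin exceeded Insulin by 0.03 on the log2 scale (exact two-sided permutation test over the 20 arrangements of 3 against 3 libraries, p = 0.50, where the smallest possible p is 0.10). This test could not have passed 0.05 whatever the ratios were.

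Neither nesprin gene was called between the plasmids. SYNE1 (ENSG00000131018.24, GRCh38 chr6:152121687-152637801, minus strand) encodes nesprin-1, an outer membrane protein whose long form binds actin. SYNE1 was at 32.5, 26.2 and 28.1 CPM in Insulin libraries and at 28.7, 34.0 and 34.7 CPM in Viperin + Insulin libraries. These groups overlapped, and the log2 fold change of 0.17 (SE 0.07, adjusted p = 0.22, edgeR) did not pass the test. It passed without Insulin library 1 (0.26, adjusted p = 0.015) and without Viperin + Insulin library 1 (0.24, adjusted p = 0.045). Control libraries were at 32.3, 31.8 and 29.1 CPM and Viperin libraries at 32.9, 35.3 and 33.3 CPM, with a log2 fold change of 0.13 (SE 0.07), or 0.16 without the 2 libraries that stood apart. No contrast called SYNE1.

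SYNE2 (ENSG00000054654.17, GRCh38 chr14:63761899-64226433, plus strand) encodes nesprin-2, which likewise ties the outer membrane to actin and to microtubule motors. Its RefSeq promoter window at the canonical start (GRCh38.p14, chr14:63852754-63853053, plus strand) is shown because SYNE2 had the largest difference of any member in these data. Capitals mark GC boxes on either strand.

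SYNE2: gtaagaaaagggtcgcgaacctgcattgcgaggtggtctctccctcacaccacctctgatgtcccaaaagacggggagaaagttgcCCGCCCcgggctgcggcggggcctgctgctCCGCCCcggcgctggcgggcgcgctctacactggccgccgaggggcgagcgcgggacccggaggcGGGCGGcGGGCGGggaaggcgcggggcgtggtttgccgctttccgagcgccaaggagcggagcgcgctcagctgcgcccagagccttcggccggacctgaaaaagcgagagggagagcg

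The window held 4 GC boxes and no CCAAT box. SYNE2 was at 137.2, 129.1 and 127.9 CPM in Control libraries and at 103.8, 83.6 and 92.5 CPM in Insulin libraries. All Insulin libraries were below all Control libraries. SYNE2 fell to 0.710 of its Control level with insulin (log2 fold change -0.49, SE 0.07, 95% interval -0.65 to -0.33, adjusted p = 0.0016, edgeR), and it stayed called with any single library left out, at -0.58 to -0.42. Without Control library 1 and Viperin library 3 it was -0.46 (adjusted p = 0.044).

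With the Viperin plasmid, SYNE2 was at 125.2, 109.0 and 116.2 CPM in vehicle and at 104.6, 97.5 and 97.0 CPM in insulin, again without overlap. The log2 fold change was -0.23 (SE 0.07, 95% interval -0.39 to -0.07), which did not pass the test in the fit used here (adjusted p = 0.12, edgeR) and passed it in 9 of 24 alternatives, DESeq2 (adjusted p = 0.0097) and limma-voom (adjusted p = 0.0085) among them. Without the 2 libraries that stood apart it was -0.24 (adjusted p = 0.31). The difference between the insulin responses was 0.26 (SE 0.10, 95% interval 0.04 to 0.49), with an unadjusted p of 0.025 and an adjusted p of 0.80 by edgeR over the genes tested. It was called in 3 of 23 alternatives. Without Insulin library 1 it was 0.35 (adjusted p = 0.010), and without the 2 libraries that stood apart 0.22 (adjusted p = 0.81).

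Between the plasmids SYNE2 had log2 fold changes of opposite sign in the absence and presence of insulin. Viperin against Control gave -0.17 (SE 0.07), as a description, or -0.13 without the 2 libraries that stood apart, and Viperin + Insulin against Insulin gave 0.10 (SE 0.07, adjusted p = 0.65, edgeR). The latter was 0.18 (adjusted p = 0.033) without Insulin library 1, and the difference between these values is the difference of insulin responses given above. The ratio of SYNE1 counts to SYNE2 counts was 0.228 to 0.246 in Control and 0.303 to 0.314 in Insulin libraries, and with the Viperin plasmid it was 0.263 to 0.324 in vehicle and 0.274 to 0.358 in insulin. Control libraries had the lowest ratios of the 4 groups and did not overlap the others.

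**Figure D2:**
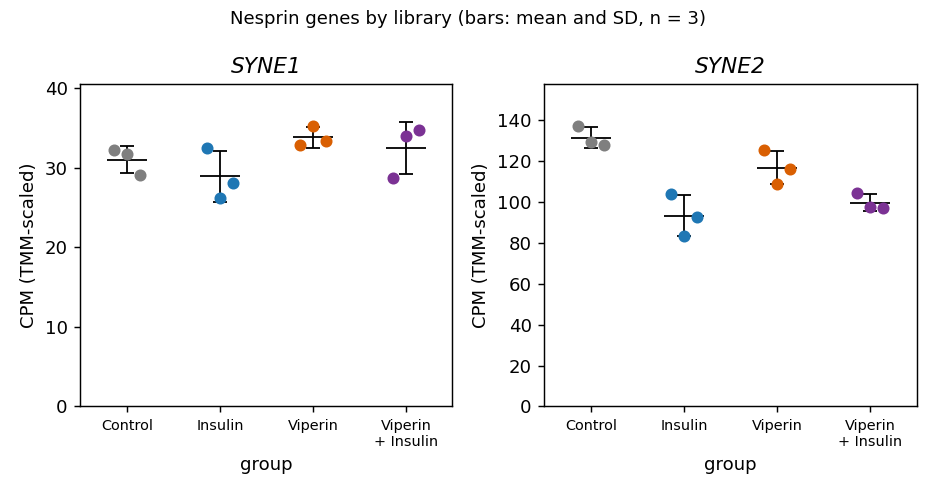
Levels of SYNE1 (left) and SYNE2 (right) in CPM (TMM-scaled) on linear axes from 0, with 1 point per library and bars for the mean and SD of the 3 libraries of each group. SYNE2 lies at 127.9 to 137.2 CPM in Control and at 83.6 to 103.8 CPM in Insulin, while the SYNE1 groups lie between 26.2 and 35.3 CPM.

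The lamins are intermediate filament proteins that form the lamina. LMNA (ENSG00000160789.20, GRCh38 chr1:156082573-156140081, plus strand) gives lamins A and C, whose amount sets much of the stiffness of a nucleus. LMNA was at 367.4, 408.3 and 388.1 CPM in Insulin libraries and at 336.9, 356.8 and 332.1 CPM in Viperin + Insulin libraries. The groups did not overlap, although the nearest libraries were close. LMNA fell to 0.881 of its level with the plasmid under insulin (log2 fold change -0.18, SE 0.04, 95% interval -0.27 to -0.10, adjusted p = 0.0057, edgeR). The call was lost without Insulin library 2 (-0.14, adjusted p = 0.097).

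In vehicle, LMNA was at 355.1, 383.2 and 406.0 CPM in Control and at 342.4, 347.4 and 365.5 CPM in Viperin libraries, which overlapped. The log2 fold change, given as a description, was -0.12 (SE 0.04) and was not called (adjusted p = 0.14, edgeR). It stayed uncalled in 22 of 24 alternatives. Without Control library 1 and Viperin library 3 it was -0.19, where its adjusted p came to 6.2e-04 in the edgeR fit. Insulin gave LMNA log2 fold changes of 0.02 against Control (adjusted p = 0.85) and of -0.04 with the Viperin plasmid (adjusted p = 0.74), neither called by edgeR.

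LMNB1 (ENSG00000113368.12, GRCh38 chr5:126776623-126837020, plus strand) and LMNB2 (ENSG00000176619.13, GRCh38 chr19:2427638-2456959, minus strand) encode the B-type lamins, which stay attached to the membrane. LMNB1 was at 273.6, 274.3 and 264.8 CPM in Insulin libraries and at 280.2, 280.0 and 279.2 CPM in Viperin + Insulin libraries. The groups lay apart by a few CPM, and the log2 fold change of 0.05 (95% interval -0.03 to 0.12, adjusted p = 0.64, edgeR) did not pass the test. For LMNB2 the same contrast gave 0.01 (95% interval -0.07 to 0.08, adjusted p = 0.97, edgeR). LMNB2 was at 354.6 to 361.5 CPM in Insulin and 347.8 to 365.5 CPM in Viperin + Insulin libraries, and at 328.7 to 380.0 CPM in Control and 330.0 to 342.5 CPM in Viperin libraries.

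Within libraries, the ratio of LMNA counts to LMNB1 counts was 1.44 to 1.47 in Control and 1.34 to 1.49 in Insulin libraries, and with the Viperin plasmid it was 1.23 to 1.35 in vehicle and 1.19 to 1.27 in insulin. The ratio of LMNA counts to LMNB2 counts was 1.07 to 1.13 in Control and 1.03 to 1.13 in Insulin libraries, and with the Viperin plasmid it was 1.01 to 1.07 in vehicle and 0.926 to 0.976 in insulin. Under insulin, both ratios were lower in every Viperin plasmid library than in every empty vector library. No test of these ratios was run.

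**Figure D3:**
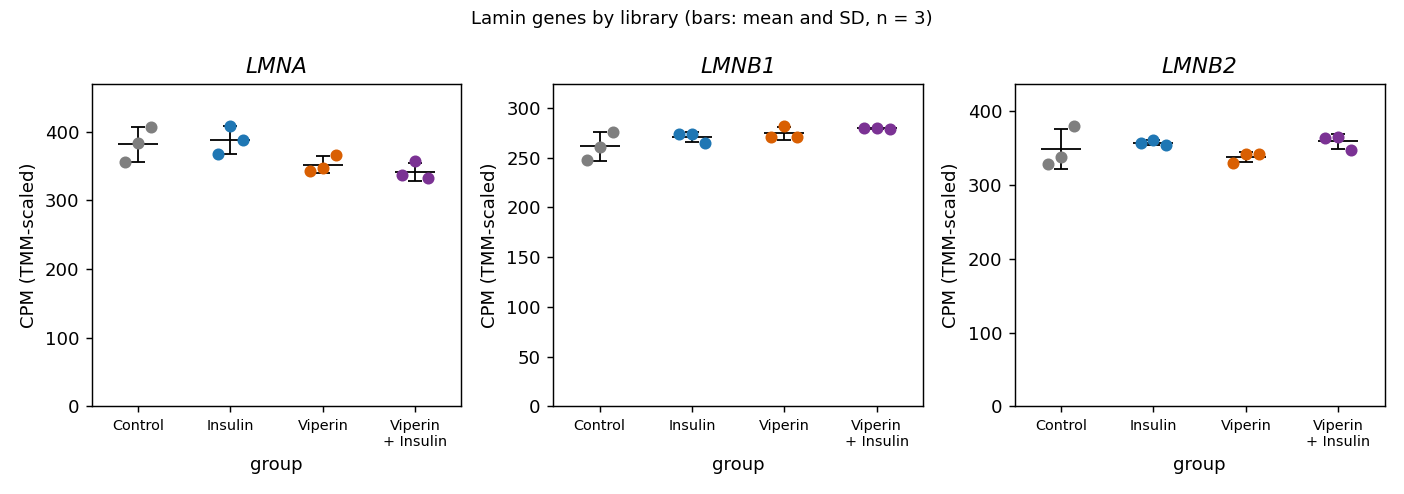
Levels of LMNA, LMNB1 and LMNB2 in CPM (TMM-scaled) on linear axes from 0, with 1 point per library and bars for the mean and SD of the 3 libraries of each group. LMNA lies at 332.1 to 356.8 CPM in Viperin + Insulin against 367.4 to 408.3 CPM in Insulin, while the LMNB1 and LMNB2 groups differ by less.

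LBR (ENSG00000143815.15, GRCh38 chr1:225401502-225428925, minus strand) is an inner membrane protein that binds lamin B and heterochromatin and is also a sterol reductase. EMD (ENSG00000102119.11, GRCh38 chrX:154379273-154381574, plus strand) encodes emerin, and TMPO (ENSG00000120802.13, GRCh38 chr12:98515579-98550351, plus strand) encodes the LAP2 proteins. Both products carry a LEM domain, which binds the chromatin protein BAF. EMD was at 60.0, 65.5 and 61.2 CPM in Insulin libraries and at 57.9, 58.1 and 54.6 CPM in Viperin + Insulin libraries. These groups did not overlap, but the log2 fold change of -0.13 (SE 0.04, adjusted p = 0.095, edgeR) missed the threshold. It passed when only those groups were fitted (-0.14, adjusted p = 0.010) and without Control library 1 and Viperin library 3 (-0.14, adjusted p = 0.033). Neither of these libraries is in this contrast, which they reach through the scaling and spread shared over groups.

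In vehicle, EMD was at 58.5 to 60.2 CPM in Control and at 55.4 to 56.1 CPM in Viperin libraries, with a log2 fold change of -0.08 (SE 0.05), or -0.09 without the 2 libraries that stood apart. LBR ranged from 98.8 to 111.6 CPM and TMPO from 378.8 to 417.1 CPM over the 12 libraries, and no contrast called either. Under insulin the plasmid gave log2 fold changes of -0.04 for LBR (95% interval -0.12 to 0.04, adjusted p = 0.75) and -0.02 for TMPO (95% interval -0.09 to 0.05, adjusted p = 0.89) by edgeR. TMPO shares 646 exon bases with TMPO-AS1 on the opposite strand, which was at 9.75 to 12.9 CPM.

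Counted together, 3 of the 10 members were called between Viperin + Insulin and Insulin, SUN1 and SUN2 higher and LMNA lower, where 3.09% of all 23041 genes tested were called, 2.09% higher and 0.994% lower. At the adjusted p under 0.001 that the study used, SUN1 and SUN2 were called, both higher, against 0.473% of all genes, 0.373% higher and 0.0998% lower. The median log2 fold change of the members was 0.03, and that of all genes tested 0.0046. SUN1, SUN2 and LMNB1 were higher and LMNA and EMD lower without overlap between the libraries, 5 of 10. Of all genes, 21.7% had groups that did not overlap, 11.8% higher and 9.88% lower. The shares of all genes, here and below, take in genes down to an average of 1 count per library. They were not matched to the levels of the members.

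Between Viperin and Control, the contrast the choice used, SUN1 and SUN2 were called, 2 of 10 members, where 2.29% of all genes were called, 1.25% higher and 1.04% lower. SUN1 was also called at 0.001, where 0.304% of all genes were, 0.187% higher and 0.117% lower. SUN1, SUN2 and SYNE1 were higher and SYNE2 and EMD lower without overlap, where 15.8% of all genes did not overlap, 8.16% higher and 7.63% lower. The members' median log2 fold change was 0.05.

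**Figure D4:**
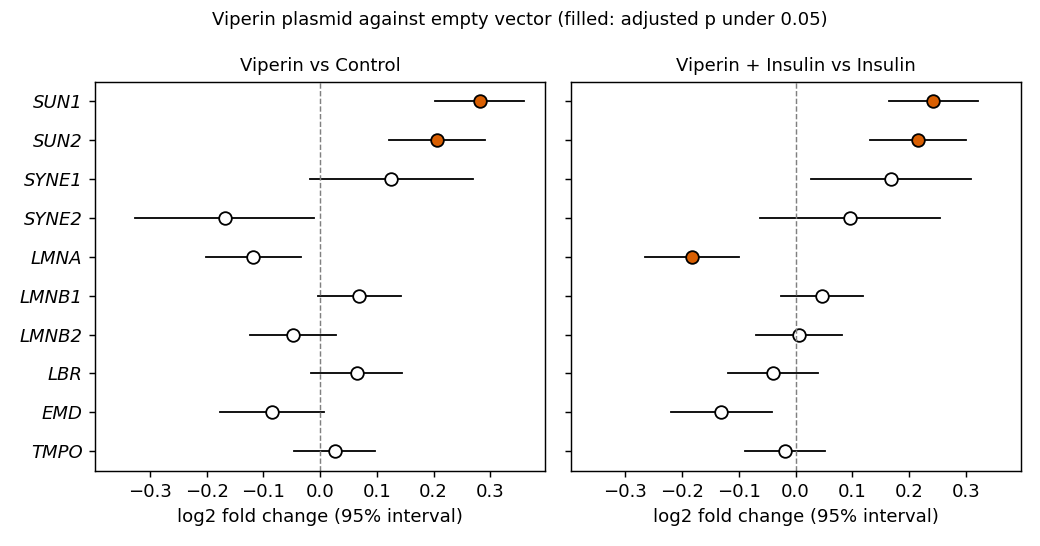
Log2 fold change of each member with its 95% interval from the edgeR fit, for Viperin against Control (left, the contrast SUN1 was chosen on) and Viperin + Insulin against Insulin (right), with filled points for an adjusted p under 0.05. In the right panel SUN1 at 0.24 and SUN2 at 0.22 are filled above 0 and LMNA at -0.18 is filled below it, and the other 7 points are open.

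For insulin, SUN2 and SYNE2 were called lower against Control, 2 of 10 members, and none higher, where 5.49% of all genes were called, 2.53% higher and 2.96% lower. With the Viperin plasmid, SUN2 alone was called, lower, where 4.56% of all genes were called, 2.17% higher and 2.39% lower. At 0.001 no member was called by edgeR for insulin, where 1.18% of all genes were called against Control (0.404% higher, 0.777% lower) and 1.11% with the Viperin plasmid (0.408% higher, 0.703% lower). SUN2 and SYNE2 were lower without overlap on both plasmids, and LMNB2 was higher without overlap with the Viperin plasmid (log2 fold change 0.09, adjusted p = 0.22, edgeR). Groups did not overlap for 20.2% of all genes against Control (9.69% higher, 10.5% lower) and 21.1% with the Viperin plasmid (11% higher, 10.1% lower). The difference of the insulin responses was called by edgeR for 0 of 10 members and 0% of all genes. DESeq2 and limma-voom also called 0 genes. Of the 23041 genes tested, 1296 had an unadjusted edgeR p under 0.05, a cutoff that some genes pass where nothing differs.

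**Figure D5:**
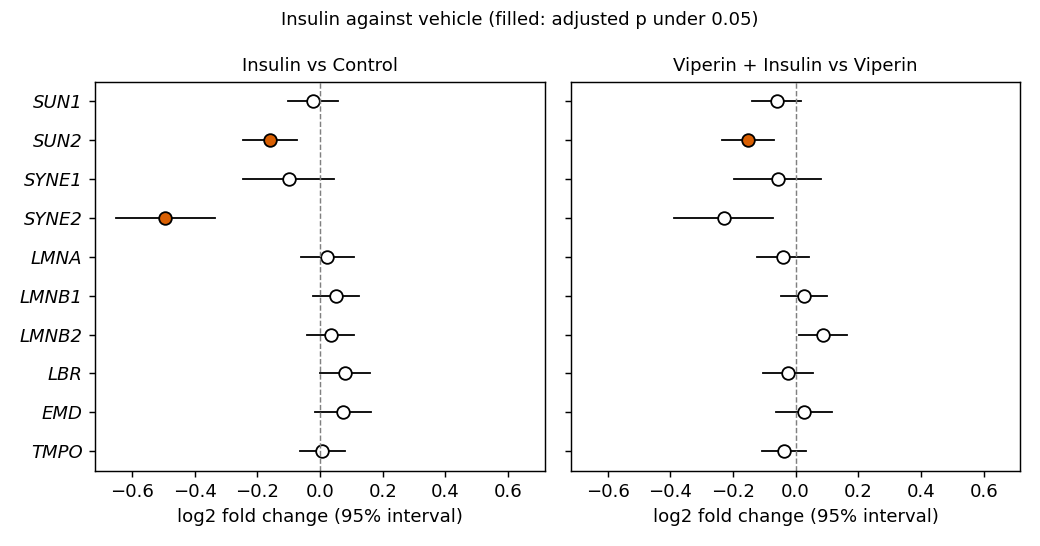
Log2 fold change of each member with its 95% interval from the edgeR fit, for Insulin against Control (left) and Viperin + Insulin against Viperin (right), with filled points for an adjusted p under 0.05. SUN2 is filled in both panels at -0.16 and -0.15, and SYNE2 is filled at -0.49 on the left and open at -0.23 on the right.

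The genes whose log2 CPM was most like that of SUN1 over the 12 libraries, among 9192 protein-coding genes with a mean of at least 10 CPM, included ATRN (Pearson r 0.97), FBLN2 (0.96), GTPBP2 (0.96) and LAMB1 (0.96). These correlations are a description over libraries that share 4 group means and the plasmid contrast. FBLN2 and LAMB1 encode extracellular matrix proteins. FBLN2 was at 151.5 ± 14.3 CPM in Control and 152.3 ± 3.33 in Insulin libraries, and with the Viperin plasmid at 198.1 ± 15.2 in vehicle and 198.7 ± 6.68 in insulin (SD, n = 3). SUN2 had an r of 0.87 with SUN1 and ranked 133. SYNE1 had 0.56, while EMD had -0.78 and LMNA -0.69.

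The other lists of nuclear envelope genes are read beside the 3.09% of all genes called between Viperin + Insulin and Insulin. Of 16 tested membrane and LINC genes outside the set, 1 was called between Viperin + Insulin and Insulin: TOR1AIP2, an activator of torsin ATPases, rose with a log2 fold change of 0.18 (adjusted p = 0.0017, edgeR). SUN3, SUN5, KASH5 and LEMD1 had too few counts to be tested. Of 13 tested lamin-processing and lamin-binding genes, 1 was called: ZMPSTE24, the protease that cuts prelamin A to mature lamin A, fell by 0.16 on the log2 scale (adjusted p = 0.0056, edgeR). None of 12 tested genes listed for envelope sealing, ESCRT-III genes and associated factors, was called by edgeR under insulin between the plasmids. In vehicle 1 of them, VPS4A, was called lower between Viperin and Control (-0.285, adjusted p = 0.0049, edgeR), where 1.04% of all genes were. Between Viperin + Insulin and Insulin, 1 of 13 cytoskeletal partners was called, PLEC, which encodes the linker plectin (-0.15, adjusted p = 0.038, edgeR).

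Among 32 nuclear pore genes, 1 was called higher and 3 lower in the same contrast, where 2.09% of all genes were called higher and 0.994% lower. NUP210, a pore membrane protein, rose by 0.36 on the log2 scale (adjusted p = 0.0010), while RANBP2 had -0.18 (adjusted p = 0.0031), NUP88 -0.13 (adjusted p = 0.026) and NUP155 -0.13 (adjusted p = 0.039), all by edgeR. The median over the pore genes was -0.01. With insulin against Control, 8 of the 32 pore genes were called higher and 1 lower, with a median of 0.06, where 2.53% of all genes were called higher and 2.96% lower and the median of all genes was -0.0059. NUP43 (0.17, adjusted p = 0.0052), NUP88 (0.15, adjusted p = 0.0081) and NUP160 (0.20, adjusted p = 0.0096) were among those that rose, and NUP210 fell (-0.33, adjusted p = 0.0023, edgeR). With insulin on the Viperin plasmid, 2 of the 32 pore genes were called higher and 0 lower, with a median of 0.04. There 2.17% of all genes were called higher and 2.39% lower, and the median of all genes was 0.0035.

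In the remaining insulin comparisons of these lists, LRRC59 rose on both plasmids with a log2 fold change of 0.19 on each (adjusted p = 1.2e-04 against Control and 8.6e-05 with the Viperin plasmid, edgeR). TMEM43, which encodes the inner membrane protein LUMA, fell against Control (-0.15, adjusted p = 0.015). ZMPSTE24 rose against Control (0.14, adjusted p = 0.014), as did RCE1, another protease of CAAX-ended proteins such as lamins (0.26, adjusted p = 0.040). With the Viperin plasmid, AHCTF1 (0.17, adjusted p = 0.0067) and RAE1 (0.15, adjusted p = 0.043), both pore genes, rose with insulin in the edgeR fit.

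Markers of other states moved in some of these contrasts. Of 8 mesenchymal and stromal markers, COL1A2 (0.40, adjusted p = 0.015), COL3A1 (0.21, adjusted p = 0.0029) and PDGFRB (0.26, adjusted p = 1.0e-04) were called higher between Viperin + Insulin and Insulin in the edgeR fit. VIM (-0.15, adjusted p = 0.015) was called lower. In the same contrast 1 of 4 endothelial markers was called higher, KDR (0.40, adjusted p = 0.037, edgeR). There 1 of 4 tested blood cell markers was called lower, HBB (-3.80, adjusted p = 1.7e-07, edgeR). Of all genes, 2.09% were called higher in that contrast and 0.994% lower. COL1A2 (0.37, adjusted p = 0.030), COL3A1 (0.27, adjusted p = 2.4e-04), KDR (0.49) and HBB (-3.79) were also called between Viperin and Control by edgeR, in the same directions. HBB had 1 to 122 counts in a library. No epithelial marker was called between the plasmids, and KRT8 rose with insulin on the Viperin plasmid (0.13, adjusted p = 0.013). PDGFRB fell with insulin against Control (-0.31, adjusted p = 1.1e-06) and with the Viperin plasmid (-0.20, adjusted p = 0.0021). The summed level of the mesenchymal and stromal markers was 6246 to 7132 CPM in Control and 6510 to 6601 in Insulin libraries, and with the Viperin plasmid 7133 to 7653 in vehicle and 7195 to 7566 in insulin. The mitochondrial share of counts was 5.59% to 6.64% in Control and 5.14% to 5.18% in Insulin libraries, and with the Viperin plasmid 4.81% to 5.34% in vehicle and 4.28% to 4.52% in insulin. Of 20 proliferation genes, 1 was called in the plasmid contrast under insulin, RRM2 (-0.14, adjusted p = 0.021, edgeR). With insulin on the Viperin plasmid 4 were called lower, MCM5, MCM6, MCM7 and E2F1, where 2.39% of all genes were. MCM5 was also called lower in Insulin against Control (-0.14, adjusted p = 0.014, edgeR). MCM6 (-0.08), MCM7 (-0.09) and E2F1 (-0.12) had the same direction there without a call. The part of these in the differences of SUN1, SUN2 and LMNA was not tested. When library sizes were computed without RSAD2 and mitochondrial genes, SUN1, SUN2 and LMNA kept their calls between Viperin + Insulin and Insulin. That setting changes the scaling alone, and any part of the plasmid RNA or the mitochondrial share was not tested.

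RefSeq promoter windows, 300 bases around a start and mostly before it, were at hand for 9 of the 10 members, 20 windows in all. SUN1 was the member without an entry. The Sp1-type GC box (GGGCGG or its reverse CCGCCC) was in 14 of the 20 windows, where 44.9% of 34943 windows of all genes hold it, and the CCAAT box (CCAAT or ATTGG) was in 8 of 20, where 34.6% do. The forkhead site GTAAACA, of the kind bound by FOXO factors, was in 0 of 20 windows on either strand, where 3.42% of all windows hold it. The core of the interferon-stimulated response element was found, on either strand, in the windows of TMPO alone, where 3.57% of all windows hold it. Windows of 1 gene can overlap, and a match of letters is a description, not a bound site.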

How the data were processed

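mRNA-seq of 12Z cells gave 12 libraries, 3 in each of 4 groups named from the labels. Per the methods, paired reads were trimmed (cutadapt, Trim Galore), STAR aligned the trimmed reads to hg38, and the authors deposited its raw counts per gene, with a column without strand and a column for each strand. Versions of these tools were not found in the sources read. The methods name GENCODE vM16, the name of a mouse release, for the annotation. Counts in these files are not normalized, pooled or filtered. The reverse-stranded counts were used, and the lines for reads assigned to no gene stayed out of library sizes. Reads mapped to more than 1 place were 9.44% to 13.9%, and 7.05% to 7.89% were in no gene or in several. The IDs are human, and GENCODE 44, used here in its place, gave symbols to 60357 of 60617. Exon lengths, canonical transcripts, gene coordinates and exon overlaps also came from GENCODE 44, and may differ from the annotation used for counting. Reads that multi-map or fall in exons shared by genes are not counted, which can lower a gene's count. These losses differed between groups. Multi-mapped reads were 9.60% to 9.94% in Insulin and 10.40% to 10.99% in Viperin + Insulin libraries. Reads in no gene or in several were 7.54% to 7.89% and 7.16% to 7.52% in the same groups. Any part of these shares in the differences between groups was not tested.

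The 23041 genes averaging 1 count or more per library were TMM-scaled and fitted as 4 group means with edgeR 4.0.16 (R 4.3.3, robust quasi-likelihood test, prior count 2), with Benjamini-Hochberg adjustment over all genes tested and calls at an adjusted p under 0.05. The study's own fit was DESeq2 with independent hypothesis weighting, which was not used here. CPM are counts per 1000000 of the TMM-scaled library size. The edgeR p-values set a difference against the spread between libraries within groups, estimated with sharing over genes and over the 4 groups. The ratio of SUN1 to SUN2 was tested by an exact permutation test. The fit was also run on counts simulated with levels and spreads that edgeR estimated from these libraries. Such counts follow the model of the fit, so they cannot show whether that model suits the libraries.

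The 10 members, the other lists, the tests and the rule for names were chosen with earlier results of these data known. Named were all members, the 5 genes most like SUN1 (1 of which is not reported here), RSAD2, and from each list up to 4 called genes per contrast with the smallest p. SUN3, SUN5, KASH5 and LEMD1 were named in addition, since they could not be tested. Not every gene so named has its values printed, and that selection was made after seeing them. Alternatives were RLE size factors, RSAD2 and mitochondrial genes left out of library sizes, no filter on low counts, filterByExpr, DESeq2 1.42.0, limma-voom (limma 3.58.1), edgeR without the robust option, unstranded counts, only the groups compared, a replicate block, each library left out in turn, Control library 1 with Viperin library 3 left out, and the 0.001 threshold. The canonical transcript length was added after the data were seen. Figures were made with Python 3.11.15 and matplotlib 3.10.9.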

Additional observations from a re-analysis of the deposited data

How the results depend on the processing

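SUN1 stayed called between Viperin + Insulin and Insulin in 24 of 24 alternatives (log2 fold change 0.23 to 0.26, adjusted p 2.9e-11 to 0.0015, edgeR unless named), as did SUN2 (0.20 to 0.23, adjusted p up to 0.011). SUN1 between Viperin and Control stayed at 0.24 to 0.32. LMNA between Viperin + Insulin and Insulin ranged from -0.22 to -0.14 and kept its call in 22 of 24. It lost the call without Insulin library 2 and at the 0.001 threshold. Alternatives that leave out only libraries of other groups reach a contrast through the scaling, filter and spread shared over groups. SUN1 for Insulin against Control, never called, was 0.016 without Control library 1 and Viperin library 3 and ranged from -0.051 to 0.011 with single libraries left out, and its difference of insulin responses ranged from -0.081 to 0.0031. The cause of these shifts was not tested.

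With single libraries left out, the members called numbered 2 to 5 between Viperin + Insulin and Insulin (5 without Insulin library 1), 2 to 3 between Viperin and Control, 1 to 2 between Insulin and Control, 0 to 2 between Viperin + Insulin and Viperin, and 0 to 1 for the difference of insulin responses. Between Viperin + Insulin and Viperin, 2 members were called without the low-count filter, with DESeq2, limma-voom or edgeR without the robust option, with the replicate block and with only the groups compared, and 0 with unstranded counts. The member gained was SYNE2. For the difference of insulin responses 1 was called, SYNE2, without the low-count filter and with the replicate block. Between Insulin and Control, 1 was called with unstranded counts and 1 without Control library 1 and Viperin library 3. At the 0.001 threshold 1 member was called between Viperin and Control, 0 between Insulin and Control and 0 between Viperin + Insulin and Viperin.

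Same-numbered libraries did not deviate together (r -0.15 to 0.12 over 18 pairs, against -0.17 to 0.14 over 36 pairs of different number), so the numbers were not taken to pair libraries. With the replicate block SYNE2 was called for Viperin against Control (-0.17, adjusted p = 0.0092), for Viperin + Insulin against Viperin (-0.23, adjusted p = 5.85e-05) and for the difference (0.27, adjusted p = 0.035), and 17 of all genes were called for the difference in place of 0.

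Calls among all genes moved by more than 1.5 times as follows. With only the groups compared, 235 in place of 528 were called between Viperin and Control, and 1793 in place of 711 between Viperin + Insulin and Insulin. Without Control library 1 and Viperin library 3 these were 928 and 1192. At the 0.001 threshold 70, 109, 272 and 256 genes were called for Viperin against Control, Viperin + Insulin against Insulin, Insulin against Control and Viperin + Insulin against Viperin, the last 2 in place of 1265 and 1050. For the difference, 37 were called without the filter, 7 with unstranded counts, 2 without the robust option and 34 without Control library 1 and Viperin library 3. With single libraries left out, the counts were 308 to 1102 (1102 without Control library 1) for Viperin against Control and as low as 278 (without Insulin library 2) for Viperin + Insulin against Insulin, 627 (without Insulin library 2) for Insulin against Control, 615 (without Viperin + Insulin library 1) for Viperin + Insulin against Viperin, and up to 26 (without Insulin library 1) for the difference. At this depth every member had at least 835 counts in each library.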
